A study of Zea mays with 12 samples.

Results

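The stretch described here is the 10 Mb of maize (Zea mays) chromosome 3 from 170000000 to 179999999 on B73 RefGen_v3, with each gene placed by the start of its locus. It holds 240 of the 39514 genes in the deposited tables, after 1 gene that was left out and is not analysed here. The stretch was chosen on the calls between genotypes in these same data, so its counts and ratios below are a description and carry no test of their own. Plants of the mutant Sdw3 were set against plants of N18 at the V7 vegetative stage. One pair of groups was the growing stem internode that lies between leaves 7 and 8, in Sdw3 and in N18. The other was the ligular zone of leaves 8 and 9, where blade and sheath meet, again in Sdw3 and in N18. Each of the 4 groups had 3 libraries by the labels. The labels give Sdw3 and N18 as cultivars and name no allele, cross or shared background for either, nor do they say whether the 3 libraries of a group came from separate plants.

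Neighbouring genes on a chromosome are inherited together, and a cross separates them more rarely the closer they lie. Maize lines are known to differ at many loci in sequence, in transcript level and in which genes they carry. Whether Sdw3 and N18 differ in DNA sequence in this stretch was not tested, since the files hold transcript levels only.

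A level is the authors' combined FPKM (fragments per kilobase of transcript, scaled to the fragments mapped) of a genotype in a tissue. No value per library is given, so no spread stands beside a level and the read depth is unknown. A gene was called higher or lower in Sdw3 when the authors' deposited table gave it an adjusted p under 0.05. Ratios are log2((Sdw3 + 1)/(N18 + 1)) of FPKM unless a fold is named, and a fold is the ratio of the 2 FPKM values. With the pseudocount of 1, the log2 ratio understates the change of low genes. In such bulk tissue, fewer cells of a type and less RNA per cell cannot be told apart. The knotted homeobox gene KN-1 (GRMZM2G017087), known from shoot meristems and stems, had an internode FPKM of 179.7 for Sdw3 and 171.5 for N18 and was listed at 0 in both genotypes in the ligular region. The C4 photosynthesis genes pep1 (GRMZM2G083841) and ME1 (GRMZM2G085019) were under 1 in the internode and at 175.5 and 73.9 in the Sdw3 ligular region, against 35.1 and 16.7 in the N18 ligular region.

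Of the 240 genes, 79 stayed below an FPKM of 1 in all 4 values, 45 of them listed at 0 throughout, and the authors tested none of the 79. The other 161 were tested in at least 1 tissue, 134 of them in both, 6 in the internode alone and 21 in the ligular region alone. In this stretch the tested genes were exactly those at an FPKM of 1 or more in the higher genotype, so a gene could enter through 1 genotype only. That was so for 4 of the 140 genes tested in the internode and 12 of the 155 in the ligular region, and 2 and 7 of these were called.

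In the internode 30 of 140 tested genes of the stretch were called, 16 higher and 14 lower in Sdw3. That is 21.4%, beside 11.3% of all tested genes (6.54% higher, 4.76% lower). In the ligular region 56 of 155 were called, 29 higher and 27 lower. That is 36.1%, beside 26.8% of all tested genes (13.1% higher, 13.7% lower). Chromosome 3 outside the stretch had 11.8% called for the internode and 27.5% for the ligular region. Of the 134 genes tested in both tissues, 14 were called in the same direction in both (10.4%), beside 3.31% of all genes and 3.02% of chromosome 3 outside the stretch. Of these 14, 8 were higher in Sdw3 in both tissues (background 2.27%) and 6 lower in both (background 1.04%). A further 5 genes were called in opposite directions (3.73%, background 1.75%), 1 of them higher in the internode (background 1.1%). Of the same 134, 10 were called in the internode only (7.46%, background 5.94%), 29 in the ligular region only (21.6%, background 19.5%) and 76 in neither tissue, so the shares of one-tissue calls were near those of all genes. A further 9 called genes had been tested in a single tissue, which was the internode for 1 and the ligular region for 8.

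Most genes of the stretch were at nearly the same level in both genotypes. Over genes at an FPKM of at least 1 in the tissue, the median size of the log2 ratio was 0.15 in the stretch against 0.15 on the rest of chromosome 3 in the internode (140 and 2139 genes), and 0.21 against 0.20 in the ligular region (155 and 2271 genes). The median signed ratio was -0.03 for the internode and -0.01 for the ligular region, beside -0.03 and -0.00 over all genes. Signs agreed between the tissues for 72 of 134 genes, 53.7%, against 51.3% of 2010 genes on the rest of the chromosome and 51.3% of all genes.

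Of the 14 genes called the same way in both tissues, 10 lay between 177 and 180 Mb, 7 of them in a single bin of 1 Mb. Counted per 1 Mb, the share of genes called the same way in both tissues was 0% from 170 to 171 Mb, 8.33% in the next bin, 12.5% from 172 Mb and 0% from 173 Mb. It was 20% from 174 Mb (2 of 10 genes) and 0% in the bins from 175 and 176 Mb. Then came 10% from 177 Mb (1 of 10), 46.7% from 178 Mb (7 of 15) and 11.1% from 179 Mb (2 of 18). The run of bins above 9.05%, which is 3 times the share outside the stretch, was 177 to 180 Mb, with single bins at 172 and 174 Mb also above it. On the rest of chromosome 3, 27 of 183 bins with at least 3 tested genes passed that level, the highest at 25%, and 134 had no shared call. Over all chromosomes, 2 of 1791 such bins reached the share of the 178 Mb bin, that bin itself and 1 on chromosome 1 with 2 of 4 genes.

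**Figure D1:**
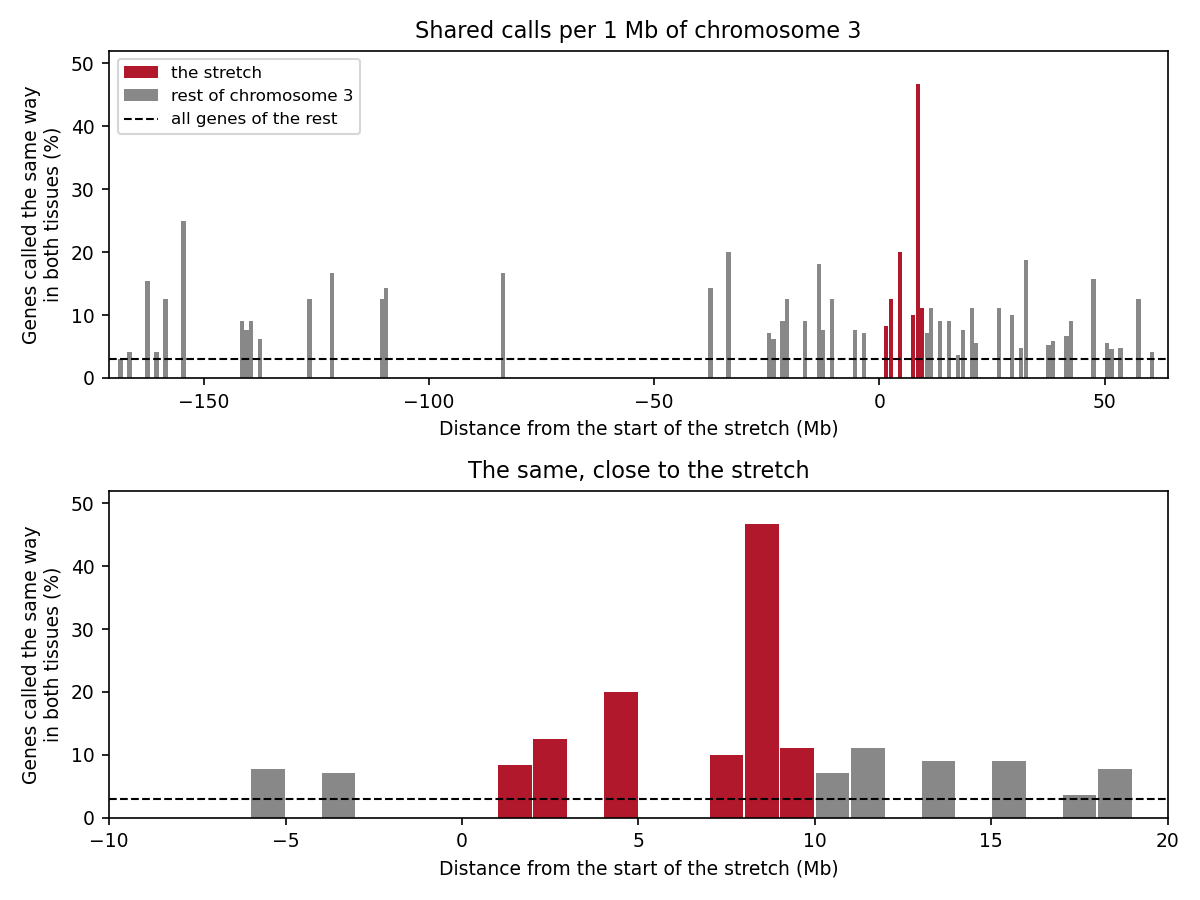
Share of genes tested in both tissues that were called in the same direction in both, per 1 Mb bin (bars, in percent), against distance from the start of the stretch at 170 Mb, over all of chromosome 3 (top) and close by (bottom). Red bars are the 10 bins of the stretch, grey bars the rest, and the dashed line is the share over all other genes of the chromosome (3.02%); the bin 8 Mb into the stretch reaches 46.7%, against at most 25% elsewhere on the chromosome.

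Within the 178 Mb bin 9 of 16 genes tested in the internode were called (4 higher, 5 lower; 56.2%, beside 11.3% of all genes). In the ligular region 10 of 15 were called (4 higher, 6 lower; 66.7%, beside 26.8% of all genes), and the bin from 180 Mb, just past the stretch, also had 10 of 15. The median size of the log2 ratio there was 0.42 for the internode and 0.66 for the ligular region. Directions were mixed, with neighbours on either side of 0. Signs agreed between the tissues for 10 of the bin's 15 genes, 66.7% beside 51.3% of all genes. The bin's 7 shared calls have the same sign by definition and are among the 10, so this share adds nothing to them. Without this bin the stretch had 7 of 119 genes called the same way in both tissues, 5.88%, and 16.9% called for the internode and 32.9% for the ligular region.

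Gene by gene, the dense run of shared calls began at GRMZM2G701981 (177910123 to 177910612) and ended at GRMZM2G165192 (178457938 to 178459898), a span of 549.8 kb. It was found, after the values had been seen, as the shared calls in windows of 5 neighbouring genes tested in both tissues with at least 3 shared calls. Such windows occurred 8 times among 2152 on chromosome 3, all of them here, and 32 times among 19973 on all chromosomes. Neighbouring windows overlap and share genes, so these are counts of windows and not of separate runs. Chromosome 10 from 140 to 150 Mb, also chosen on shared calls, held 13 of these windows. It had 266 genes tested in both tissues, against 134 here. Such windows are thus not particular to this stretch. The span holds 23 genes, of which 12 were tested in neither tissue and 10 in both. Of those 10, 7 were called the same way in both tissues, 1 in the ligular region only and 2 in neither, and none in opposite directions. Among all genes tested in both tissues, 3.31% were called the same way and 1.75% in opposite directions. The run was picked for shared calls and cut to begin and end on them, so the counts above follow largely from that choice. Upstream of the run, 42 genes tested in both tissues lay between the previous shared call at 174868241 and its start, 3.04 Mb with no shared call. Downstream the next one began at 178864335, 0.41 Mb further on, and the last one of the stretch began at 179268326.

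**Figure D2:**
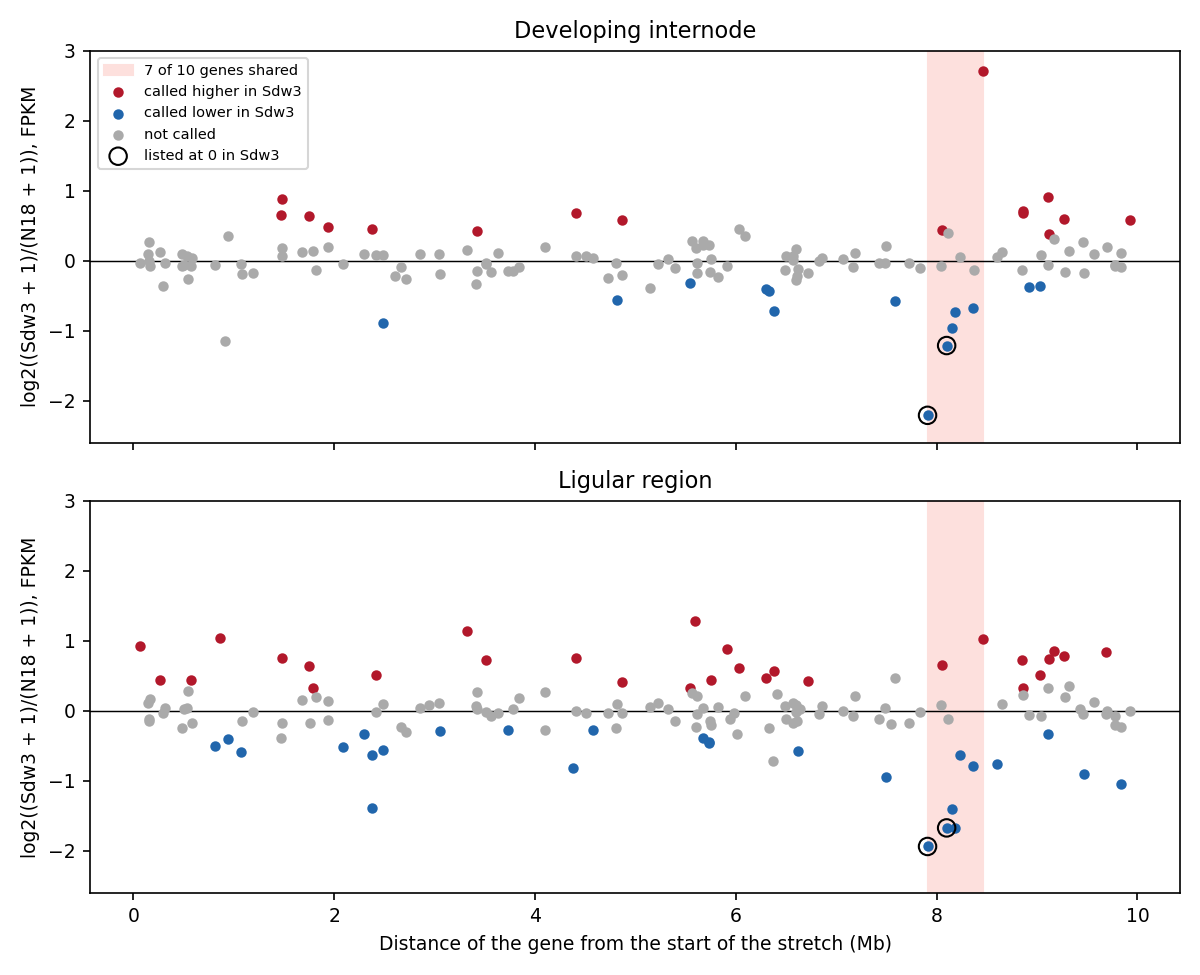
Log2((Sdw3 + 1)/(N18 + 1)) of FPKM for each tested gene against its distance in Mb from the start of the stretch, in the internode (top, 140 genes) and the ligular region (bottom, 155 genes). Red points were called higher and blue points lower in Sdw3, grey ones were not called, circles mark the 2 genes listed at 0 in Sdw3 in both tissues, and the shaded band is the dense run; the lowest points of both panels and the highest of the upper one lie in or at the edge of the band.

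At the head of the run stands GRMZM2G701981, a short locus with no entry in the reference table. It was listed at 0 in Sdw3 in both tissues, against an FPKM of 3.62 in the N18 internode and 2.83 in the N18 ligular region. GRMZM2G047851 (178100263 to 178101383) showed the same pattern, at 0 in Sdw3 in both tissues against 1.32 in the N18 internode and 2.19 in the N18 ligular region. Both were called lower in both tissues, at the smallest adjusted p of each table. By the authors' deposited table that smallest value is 0.00109 for the internode and 0.000398 for the ligular region, and genes of the run named below as called have it unless another is given. In the whole series 4 of 20036 genes at an FPKM of at least 1 in both tissues were listed at 0 in Sdw3 in both and at 1 or more in N18 in both (0.02%), and these are 2 of the 4. In either genotype there were 9 such genes (0.0449%), 1 of them on chromosome 3 outside the stretch. By this rule a gene enters through the other genotype alone, and both genes lay at low N18 levels, GRMZM2G047851 close to the limit of 1. With the limit raised to an FPKM of 5, neither was counted. No fold is given against a value listed at 0.

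The reference table places GRMZM2G047851 and its neighbour GRMZM2G007659 (178110298 to 178113681) under 1 gene entry, LOC100382678. The neighbour was at 2.57 in Sdw3 and 1.71 in N18 in the internode, and at 1.98 in Sdw3 and 2.22 in N18 in the ligular region, and was called in neither. How reads were divided between the 2 gene models is not given in the sources used here, so both values are uncertain.

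GRMZM2G003682 (178149613 to 178151478) had the highest ligular level of the genes lower in both tissues. It was at 59.1 in Sdw3 and 158.5 in N18 in the ligular region, lower by 2.68-fold, and at 1.28 in Sdw3 and 3.45 in N18 in the internode, lower by 2.69-fold. Its fold was thus nearly equal in tissues whose levels lay far apart, with the reservation that the 2 tables were made separately. GRMZM2G177518 (178185957 to 178188435), the next gene along, was at 19.3 in Sdw3 and 63.8 in N18 in the ligular region (3.32-fold lower) and at 1.14 in Sdw3 and 2.57 in N18 in the internode (2.25-fold lower). GRMZM2G076688 (178358648 to 178363891) was lower by a smaller factor, at 11.2 in Sdw3 and 18.6 in N18 in the internode (1.65-fold) and 7.06 in Sdw3 and 12.9 in N18 in the ligular region (1.82-fold). The files and the reference table give these genes no descriptive name.

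A pair of genes in the run went the other way. GRMZM2G165192, at its far end, had the largest increase of the stretch, at 44.3 in Sdw3 and 5.92 in N18 in the internode, higher by 7.48-fold. In the ligular region it was at 19.2 in Sdw3 and 8.85 in N18, higher by 2.16-fold. The 2 tables were made separately, so its levels are not compared between tissues. GRMZM2G127949 (178053576 to 178060075) was abundant and changed less, at 223.9 in Sdw3 and 141.6 in N18 in the ligular region (1.58-fold higher) and at 89.8 in Sdw3 and 65.9 in N18 in the internode (1.36-fold higher).

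The run also held genes that were not called in both tissues. GRMZM2G128918, between the first pair of lower genes, was at 17.7 in Sdw3 and 18.8 in N18 in the internode and at 28.8 in Sdw3 and 27.1 in N18 in the ligular region, and was not called. GRMZM2G083195 was called lower in the ligular region only, at 179.2 in Sdw3 and 277.9 in N18, while in the internode it was at 4.79 in Sdw3 and 4.59 in N18. The WUSCHEL-related homeobox gene wox5B (GRMZM2G116063; 178369719 to 178371133) was tested in the internode only, at 2.57 in Sdw3 and 2.91 in N18, and was not called. The family is known for keeping stem cell populations of shoot and root meristems.

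**Figure D3:**
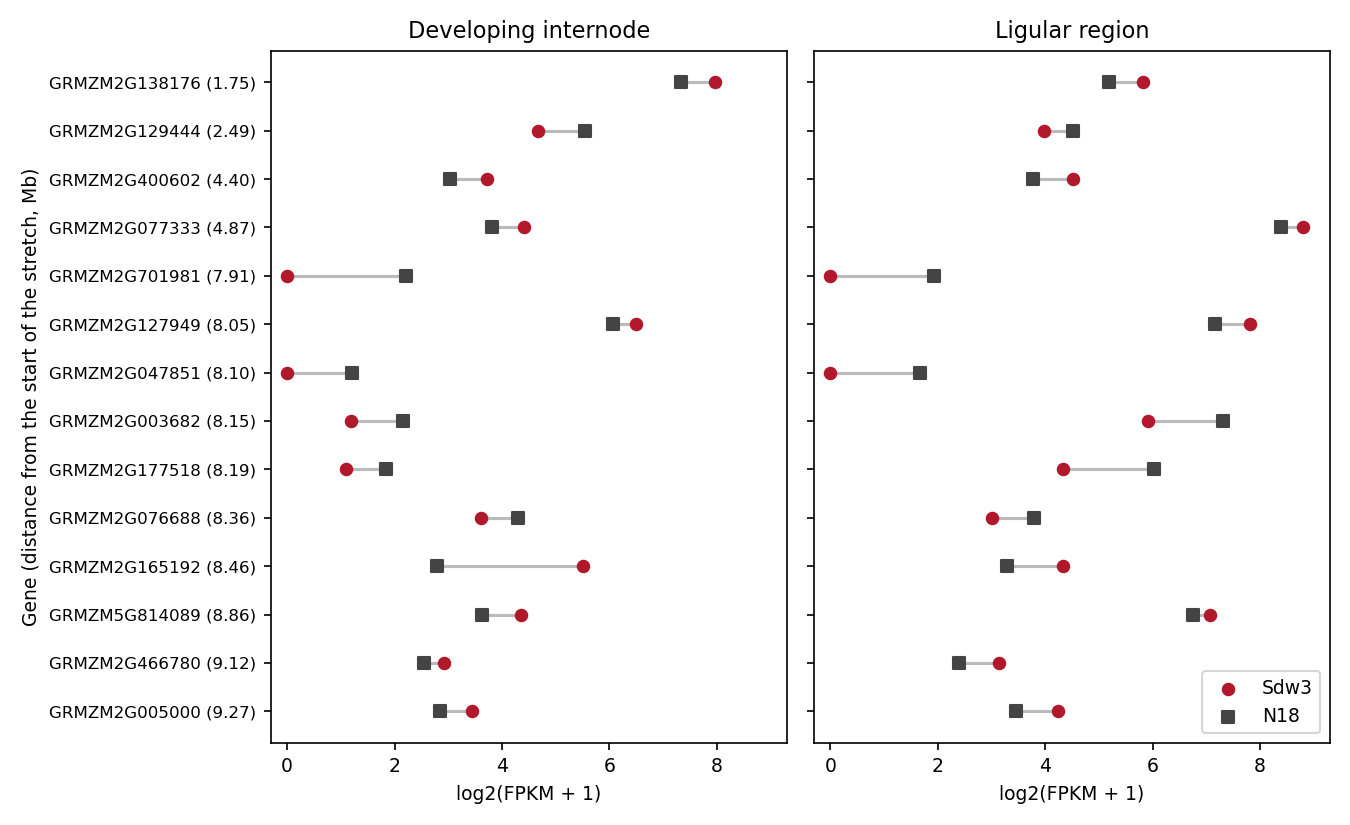
Level of the 14 genes called in the same direction in both tissues, as log2(FPKM + 1), in Sdw3 (red circles) and N18 (dark squares), in the internode (left) and the ligular region (right). Genes run down the page by position, with the distance from the start of the stretch in Mb in brackets; 5 of the 7 genes of the dense run have the Sdw3 point left of the N18 point in both panels, and 6 of the other 7 have it right.

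Downstream of the run, 3 more genes were called higher in both tissues. GRMZM5G814089 (178864335 to 178864898), which the reference table gives as shbp1, was at 19.3 in Sdw3 and 11.4 in N18 in the internode and at 133.7 in Sdw3 and 106.4 in N18 in the ligular region. The authors' deposited table gives it an adjusted p of 0.00201 for the internode and 0.0234 for the ligular region. The adjoining gene model GRMZM6G741210 carries the same name, and was called in the internode (24.2 in Sdw3, 14.7 in N18) but not in the ligular region (140.7 in Sdw3, 120.5 in N18). These may be parts of 1 gene and are not independent of each other. GRMZM2G466780 (179118223 to 179123201) was at 6.57 in Sdw3 and 4.83 in N18 in the internode, adjusted p 0.0272 as the authors' deposited table has it, and at 7.80 in Sdw3 and 4.25 in N18 in the ligular region. GRMZM2G005000 (179268326 to 179272234) was at 9.89 in Sdw3 and 6.21 in N18 in the internode and at 17.9 in Sdw3 and 9.99 in N18 in the ligular region. All of these were under 2-fold, and after the last of them no gene of the stretch was called the same way in both tissues.

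Upstream of 177 Mb, 4 of 91 genes tested in both tissues were shared calls (4.40%). That is near the 3.31% of all genes and the 3.02% of chromosome 3 outside the stretch. psbs1 (GRMZM2G077333; 174868241 to 174870828), which encodes the photosystem II protein that dissipates excess light energy, was higher in both. It was at 447.1 in Sdw3 and 335.4 in N18 in the ligular region (1.33-fold) and at 20.1 in Sdw3 and 13.1 in N18 in the internode (1.54-fold). GRMZM2G138176 was at 250.2 in Sdw3 and 160.3 in N18 in the internode and at 55.5 in Sdw3 and 35.3 in N18 in the ligular region, so its folds of 1.56 and 1.57 were nearly equal. GRMZM2G400602 was at 12.2 in Sdw3 and 7.23 in N18 in the internode and at 21.99 in Sdw3 and 12.6 in N18 in the ligular region. The 1 gene lower in both was GRMZM2G129444, at 24.3 in Sdw3 and 45.8 in N18 in the internode (1.88-fold) and at 14.7 in Sdw3 and 22.1 in N18 in the ligular region (1.502-fold). It shares its reference entry with the gene model GRMZM2G431006, and how reads were shared out between the models is not known here.

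Among the 14 shared calls, 5 met a rule of at least 2-fold in both tissues (3.73% of 134, beside 0.532% of all genes). These were the 2 genes listed at 0 in Sdw3, GRMZM2G003682, GRMZM2G177518 and GRMZM2G165192, all in the dense run. The 2 genes listed at 0 meet that rule at any N18 level and have no measured fold. As the stretch was chosen on shared calls, the share is a description only. The median locus of the 14 spanned 2.55 kb, against 4.45 kb for the 76 genes called in neither tissue. It was 3.58 kb for the 39 called in 1 tissue and 3.56 kb for the 5 called in opposite directions. In N18, the ligular and internode levels of 5 of the 14 differed by at least 4-fold on the FPKM + 1 scale, between tables that were made separately. So did those of 5 of the 76, 9 of the 39 and 1 of the 5 opposite genes. No value over all genes stands beside these.

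**Figure D4:**
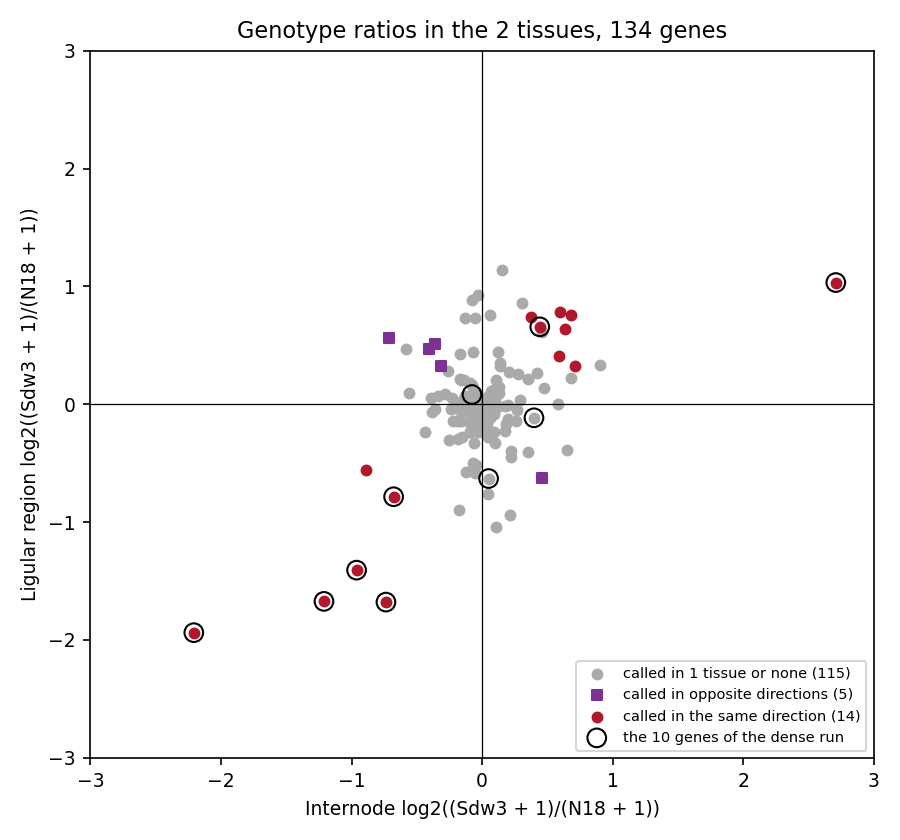
Log2((Sdw3 + 1)/(N18 + 1)) of FPKM in the ligular region against that in the internode, for the 134 genes tested in both tissues. Red points are the 14 genes called in the same direction, purple squares the 5 called in opposite directions and grey points the other 115. Circles mark the 10 genes of the dense run. The point lowest on both axes and the point furthest right are circled. Of the 10 circled points 3 are grey, and most other grey points lie near the centre.

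In 5 genes the call turned round between tissues, 4 of them lower in Sdw3 in the internode and higher in the ligular region. The difference between tissues was not itself tested. GRMZM2G164141 was the most abundant, at 84.7 in Sdw3 and 112.4 in N18 in the internode and at 58.7 in Sdw3 and 42.1 in N18 in the ligular region. GRMZM2G085577 was at 50.8 in Sdw3 and 65.5 in N18 in the internode and at 52.9 in Sdw3 and 36.8 in N18 in the ligular region. GRMZM2G149802 was at 12.6 in Sdw3 and 15.9 in N18 in the internode and at 2.66 in Sdw3 and 1.92 in N18 in the ligular region. GRMZM2G434098 was low throughout, at 1.11 in Sdw3 and 2.45 in N18 in the internode and at 1.70 in Sdw3 and 0.822 in N18 in the ligular region. The 1 gene with the reverse pattern was GRMZM2G078500, at 9.87 in Sdw3 and 6.92 in N18 in the internode and at 11.6 in Sdw3 and 18.4 in N18 in the ligular region. By the authors' deposited table, the adjusted p of these 5 ran from 0.00201 to 0.0218 in the internode and from 0.000398 to 0.0179 in the ligular region. None of the 5 lies in the dense run, but that run was picked for calls in the same direction, so this is a description only.

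Of the 10 genes tested in both tissues and called in the internode only, 6 were higher (4.48%, background 3.02%) and 4 lower (2.99%, background 2.92%). GRMZM2G110195, also higher, was not tested in the ligular region. Whether the genotype difference itself differed between tissues was not tested for these genes or for those called in the ligular region only. The largest increases were those of GRMZM2G026649 (13.1 in Sdw3, 6.51 in N18), which was at 10.8 in Sdw3 and 8.37 in N18 in the ligular region, and GRMZM2G110195 (16.8 in Sdw3, 8.67 in N18), which was nearly unread in the ligular region. Its neighbour GRMZM2G110153, the MADS-box gene named both zmm16 and sts1 that acts in stamen and lodicule identity, was at 2.85 in Sdw3 and 1.46 in N18. Its internode adjusted p by the authors' deposited table was 0.00958, and in the ligular region it was at 4.42 in Sdw3 and 6.08 in N18. GRMZM6G191662, the most abundant gene of the stretch and the last one in it, was at 790.4 in Sdw3 and 528.7 in N18 in the internode and at 985.6 in Sdw3 and 986.5 in N18 in the ligular region. The decreases were led by GRMZM2G138888 (10.6 in Sdw3, 16.3 in N18) and GRMZM2G110922 (27.6 in Sdw3, 41.2 in N18). GRMZM2G144602 was listed at 0 in the Sdw3 internode against 1.22 in the N18 internode, and was not called (adjusted p 0.134 by the authors' deposited table).

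Of the 29 genes tested in both tissues and called in the ligular region only, 12 were higher (8.96%, background 9.69%) and 17 lower (12.7%, background 9.79%). The 8 genes called there and not tested in the internode include NAC1, GRMZM2G149756 and GRMZM2G078667, and no internode test exists for these 8. The NAC transcription factor genes NAC1 (GRMZM2G014653) and NAC95 (GRMZM5G813651), a family known from organ boundaries, stress and senescence, were both higher. NAC1 was higher by 2.25-fold (11.6 in Sdw3, 5.14 in N18) and NAC95 by 2.32-fold (5.01 in Sdw3, 2.16 in N18). GRMZM2G149756 was 3.56-fold higher (4.51 in Sdw3, 1.27 in N18) and GRMZM2G060255 2.27-fold higher (40.9 in Sdw3, 18.01 in N18). LAC1 (GRMZM5G842071), a laccase gene by its name, was at 19.999 in Sdw3 and 10.6 in N18, while the second gene model under that name, GRMZM2G400390, was close to 0 in all values.

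Among the lower ones, GRMZM2G078667 had the largest fold, 6.21, on a low level (0.453 in Sdw3, 2.82 in N18), adjusted p 0.02997 as the authors' deposited table gives it. GRMZM2G053869 was at 9.66 in Sdw3 and 19.5 in N18, and GRMZM2G065557 at 80.1 in Sdw3 and 149.9 in N18. GRMZM2G302245 was at 3.53 in Sdw3 and 8.33 in N18, but it shares its locus with GRMZM2G002276, so its value is uncertain. MYB34 (GRMZM2G125522; 178602359 to 178604208), a MYB transcription factor gene just past the dense run, was at 13.0 in Sdw3 and 22.8 in N18, lower by 1.75-fold, and in the internode at 10.3 in Sdw3 and 9.94 in N18. The basic leucine zipper gene bZip37 (GRMZM5G858197) was at 20.8 in Sdw3 and 27.6 in N18, adjusted p 0.00919 by the authors' deposited table.

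Other genes with a name were at like levels or too low to read. na1 (GRMZM2G449033; 179041146 to 179042863), also named DET2, encodes the steroid reductase of brassinosteroid synthesis and is known as a dwarfing locus of maize. It was at 17.5 in Sdw3 and 16.4 in N18 in the internode and at 26.5 in Sdw3 and 28.0 in N18 in the ligular region, and the authors' deposited table gives adjusted p-values of 0.761 for the internode and 0.713 for the ligular region. PDK1 (GRMZM2G097821) was at 27.4 in Sdw3 and 23.6 in N18 in the internode and at 17.4 in Sdw3 and 14.3 in N18 in the ligular region. AR1 (GRMZM2G479423) was at 73.4 in Sdw3 and 63.7 in N18 in the internode and at 40.1 in Sdw3 and 40.2 in N18 in the ligular region. The actin gene Maz63 and the OVATE family gene OFP32 stayed near or under an FPKM of 1, and m25 was listed at 0 throughout. None of these was called in either tissue. An uncalled gene is not shown to be equal between genotypes.

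At an FPKM of at least 50 in all 4 values stood 8 genes. Besides GRMZM6G191662, the most abundant were GRMZM2G078314, GRMZM6G768049, GRMZM2G023748 and GRMZM2G039365. GRMZM2G078314 was at 575.4 in Sdw3 and 607.8 in N18 in the internode and was called higher in the ligular region, at 116.9 in Sdw3 and 62.99 in N18. GRMZM2G023748 was at 355.5 in Sdw3 and 400.7 in N18 in the internode and was called higher in the ligular region, at 143.3 in Sdw3 and 106.3 in N18.

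At the borders set by the rule there was no step. Just inside the start, NAC95 was called in the ligular region only, and just outside it GRMZM2G471142, beginning at 169916618, was at 3.36 in Sdw3 and 7.47 in N18 in the ligular region and uncalled in the internode. Past the end, the first gene called the same way in both tissues was GRMZM2G054807 (180252598 to 180254787), at 32.0 in Sdw3 and 60.1 in N18 in the ligular region and 3.69 in Sdw3 and 5.66 in N18 in the internode. The stretch of chromosome 10 from 140 to 150 Mb was also chosen on shared calls. There 26 of 266 genes were called the same way in both tissues (9.77%). By the rule used above, 0 of 265 genes there were listed at 0 in 1 genotype in both tissues, beside 0.0449% of all genes. With so low a share over all genes, a count of 0 shows no difference from them.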

How the data were processed

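Total RNA of 12 samples, 3 libraries for each of 4 groups, was sequenced with standard Illumina libraries, per the labels' protocols. The submitters' processing notes name CASAVA 1.8, bcl2fastq, TopHat2 2.1.0, Cufflinks and the build B73 RefGen_v3; further settings were not given in the sources used. The deposited tables (1 per tissue) hold 1 FPKM per gene and genotype combined over the libraries by the authors, a unit taken from the column layout and Cufflinks. The authors' p-value and adjusted p per gene are used as deposited. Benjamini-Hochberg adjustment of these p-values, redone per tissue, matched the deposited adjusted values within 5.26e-07. The deposited log2 ratio and test score of the authors were not used for any value; the ratio was recomputed from the FPKM.

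Genes were taken by locus start, counted per set and per 1 Mb bin, with shares given where at least 3 genes were tested in both tissues. The bin procedure was tested on simulated data. Names came from a RefSeq table of a later assembly (Zm-B73-REFERENCE-NAM-5.0): 131 of 240 identifiers matched and 17 had a descriptive name. The rule for named genes took 52: shared, opposite and 0-listed calls, the 5 largest calls per tissue and direction seen in that tissue alone, up to 5 abundant genes, named genes, and the called genes nearest the borders. GRMZM2G128918, GRMZM2G083195, GRMZM2G007659 and GRMZM2G144602 are named outside it and were chosen after their values were seen. The members, the rule and the lists were chosen with earlier results of these data known. No sequence is shown, since none was read. Tests needing 1 value per library could not be run. Python 3.11.15, numpy 2.4.6, pandas 2.3.3 and matplotlib 3.10.9 were used.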

Additional observations from a re-analysis of the deposited data

How the results depend on the processing

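Requiring a 2-fold change besides the adjusted p left 7 calls in the internode (5% of tested genes, beside 2.19% of all), 16 in the ligular region (10.3%, beside 6.99%) and 5 in the same direction in both (3.73%, beside 0.532%). A gene listed at 0 in 1 genotype passed the 2-fold rule at any level of the other, as 2 of these 5 did. Leaving out 178 to 179 Mb, chosen after seeing the data, gave 7 shared calls (5.88%, beside 3.31% of all genes). Called genes then numbered 21 in the internode (16.9%, beside 11.3%) and 46 in the ligular region (32.9%, beside 26.8%). With a threshold of 0.01 on the authors' adjusted p there were 12 shared calls (8.96%, beside 1.95% of all genes). At 0.1 there were 17 (12.7%, beside 4.42%). The extent depended on its definition. It was 3 Mb by 1 Mb bins and 5 Mb (177 to 182 Mb) at 2 times the outside share. Bins of 0.5 and 2 Mb in place of 1 Mb gave 177.5 to 179.5 and 178 to 182 Mb. By runs of 5 genes it was 0.55 Mb. Where the median size of change, averaged over the 2 tissues, had to exceed that of far bins, it was 1 Mb (178 to 179 Mb). Those were the bins outside 160 to 190 Mb with at least 3 genes tested in both tissues. Of genes listed at 0 in 1 genotype, 0 remained at an FPKM of at least 5 in the other. Over the pseudocounts, filters, median centring and gene sets tried, the median size of change ran from 0.14 to 0.17 in the internode and from 0.18 to 0.26 in the ligular region, and the same-sign share from 51.0 to 55.2%. No paired analysis was possible because the columns carry 1 combined value per genotype, and for the same reason no library could be left out in turn. The read depth is unknown, so a value listed at 0 gives no detection limit.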
